A study of Mus musculus with 8 samples.

Results

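The genes described here act at the entry to and during S phase, the part of the cell cycle in which DNA is copied. They are Mcm2, Mcm3, Mcm4, Mcm5, Mcm6 and Mcm7, Cdt1, Pcna, Rrm1 and Rrm2, chosen by symbol as 10 of the 16888 genes in the deposited expression table, and each was present once. Expression was measured by RNA sequencing of total RNA from whole mouse pancreas in 8 samples. All 8 came from mice injected repeatedly with cerulein, a secretagogue peptide that is used to bring about acute pancreatitis. The 4 CKO samples (CKO1 to CKO4) carried a knockout of Anxa1 restricted to myeloid cells, and the 4 WT samples (WT1 to WT4) carried floxed Anxa1 alleles (Anxa1 flox/flox). The sources used here give no strain, age, Cre line or time of sampling, and no group without cerulein was compared. Nothing in the labels says that the replicates were separate animals, so the p-values measure the spread between these samples, which may be technical.

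Before S phase, the Mcm2 to Mcm7 proteins form a 6-part ring, the MCM2-7 helicase, which the loading factor Cdt1 places on origins of replication. This step is called licensing. Once S phase begins the helicase unwinds the DNA, the sliding clamp PCNA holds the polymerases on it, and ribonucleotide reductase, made of the large subunit Rrm1 and the small subunit Rrm2, supplies deoxynucleotides. Genes of this kind are widely known as targets of E2F factors, while many genes of mitosis, which follows later in the cycle, are regulated through a promoter element called the CHR (cell cycle genes homology region), often beside CCAAT boxes. The adult pancreas divides little, and its acinar cells can re-enter the cycle after injury.

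RefSeq promoters (GRCm38.p6, from 250 bases before to 50 after the gene start) were present for 9 of the 10 genes. The E2F letters searched on both strands were TTTCCCGC, TTTCGCGC, TTTGCCGC and TTTGGCGC. They were found in 5 of these 9 (Mcm3, Mcm5, Mcm6, Mcm7 and Cdt1) and in 2.6% of 27025 genes with a promoter. For 40 mitosis genes used as the contrast, 33 had a promoter and 3 of them held these letters. The CHR letters, TTTGAA and TTCGAA on both strands, were in 25 of the 33 mitosis genes, in 2 of the 9 replication genes and in 21.7% of all genes. CCAAT on either strand was in 24 of the 33, 8 of the 9 and 41.1%. Matches to different motifs may overlap. A match is only a run of letters and says nothing of binding. The 250 bases before the start are shown for Mcm6 and Mcm5, whose shares of the helicase transcripts differed in opposite directions, and for Top2a and Mki67, 2 mitosis genes whose levels are given further on. Capitals mark the E2F letters in the first pair and the CHR letters in the second pair, on either strand. The windows are chr1:128359706-128359955 (minus strand) for Mcm6, chr8:75109259-75109508 (plus strand) for Mcm5, chr11:99024190-99024439 (minus strand) for Top2a and chr7:135716380-135716629 (minus strand) for Mki67.
Mcm6: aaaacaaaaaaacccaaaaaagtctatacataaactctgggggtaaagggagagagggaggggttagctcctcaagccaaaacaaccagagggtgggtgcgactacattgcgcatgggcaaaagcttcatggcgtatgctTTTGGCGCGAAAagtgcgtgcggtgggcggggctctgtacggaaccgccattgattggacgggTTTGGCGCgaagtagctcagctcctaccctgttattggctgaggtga
Mcm5: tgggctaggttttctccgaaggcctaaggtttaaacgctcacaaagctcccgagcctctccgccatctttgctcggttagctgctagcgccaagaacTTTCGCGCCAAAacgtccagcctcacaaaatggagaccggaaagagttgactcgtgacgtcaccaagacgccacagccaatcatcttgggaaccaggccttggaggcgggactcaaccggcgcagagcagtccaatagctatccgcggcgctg
Top2a: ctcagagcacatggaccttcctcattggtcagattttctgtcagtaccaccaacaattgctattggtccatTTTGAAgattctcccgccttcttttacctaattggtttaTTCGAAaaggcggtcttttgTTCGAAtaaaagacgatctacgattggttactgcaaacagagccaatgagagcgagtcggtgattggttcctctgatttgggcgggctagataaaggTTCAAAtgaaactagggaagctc
Mki67: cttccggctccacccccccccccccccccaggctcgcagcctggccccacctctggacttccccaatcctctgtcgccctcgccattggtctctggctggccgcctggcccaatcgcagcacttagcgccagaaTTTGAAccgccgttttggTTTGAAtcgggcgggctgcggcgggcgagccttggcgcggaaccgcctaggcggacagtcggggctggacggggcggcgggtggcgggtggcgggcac
Mcm6 had 3 matches to the E2F letters in these bases and Mcm5 had 2, with overlapping matches on the 2 strands in each. Top2a had 4 CHR matches and Mki67 had 2. Pcna, Rrm1, Rrm2 and Mcm2 had no match to the E2F letters in the searched window.

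Levels were in RPKM, reads scaled to the length of the gene and to the total reads of the library. Values of single libraries are listed below in the order of their replicate numbers, 1 to 4. Library totals recovered from the values were 30469002 to 34359802 reads. Of the 10 genes, 7 reached 1 RPKM in at least 4 libraries and were tested with limma on log2(RPKM + 1), with Benjamini-Hochberg adjustment over all 8513 tested genes and a threshold of 0.05. Such log2 changes, given as CKO minus WT, understate the change of genes near 1 RPKM. Mcm6 and Pcna passed, both lower in CKO, 0 of the 7 passed as higher, and 5 did not pass. Of all tested genes 7.17% passed, 5.74% as lower and 1.42% as higher. The median log2 change was -0.26 over the 7 genes and -0.12 over all tested genes. After median centring, which moved the median of all genes to -0.02, the passing genes divided into 305 higher and 267 lower, against 121 higher and 489 lower before it, and Mcm6 and Pcna still passed. The groups did not overlap, with CKO lower, for 3 of the 10 genes (Mcm6, Pcna and Cdt1). That held for 13.5% of the genes with 10 reads or more over the 8 libraries. CKO was higher without overlap for 2.63% of them and for 0 of the 10. All 3 were among the 7 genes tested with limma, and over all genes tested there the shares were 16.2% lower and 2.46% higher.

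Anxa1, the gene deleted in myeloid cells, had levels of 4.84, 4.76, 5.21 and 7.13 RPKM in CKO1 to CKO4. In WT1 to WT4 it had 8.44, 14.7, 7.05 and 9.74 RPKM. Its ranges overlapped slightly, and its log2 change was -0.73 (limma, adjusted p = 0.0417), a call lost in 12 of 18 other settings. The sources used here do not name the deleted exons, so reads outside them would not reflect the deletion. Summed levels of acinar markers, the digestive enzymes and acinar factors that identify this tissue, were 271302 to 305950 RPKM in CKO and 273132 to 300161 RPKM in WT. Acinar genes, which define the labelled tissue, were thus abundant in all 8 libraries. WT2 stood apart from the other libraries. It was the highest of all 8 for 5 of the 10 replication genes (Mcm2, Mcm3, Mcm4, Mcm6 and Cdt1), for all 12 macrophage markers, all 6 B and plasma cell markers, all 6 adipocyte markers, 7 of 8 T and NK cell markers and 6 of 7 endothelial markers. Results below are given without WT2 where it matters.

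The order of the 10 genes by mean RPKM over the 8 libraries was Pcna (12.6), Rrm2 (4.30), Mcm6 (3.99), Mcm7 (2.94), Cdt1 (1.78), Mcm2 (1.37), Mcm3 (1.22), Mcm5 (0.929), Rrm1 (0.830) and Mcm4 (0.792). Pcna stood clear of the rest, since its lowest library (8.22 RPKM) was above the highest library of any other gene of the set (6.48 RPKM, Mcm6 in WT2). All other neighbours in this order had overlapping ranges over the 8 libraries. In mm10 (GENCODE M21) Mcm6 lies at chr1:128331590-128359664, Pcna at chr2:132249162-132253314, Cdt1 at chr8:122568015-122573554, Mcm2 at chr6:88883474-88898780 and Mcm3 at chr1:20802968-20820312. Mcm4 lies at chr16:15623897-15637400, Mcm5 at chr8:75109569-75128439, Rrm1 at chr7:102441695-102469771 and Rrm2 at chr12:24708241-24714146. Reads behind a value ran from 50 (Mcm4 in WT4) to 922 (Mcm6 in WT2).

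**Figure D1:**
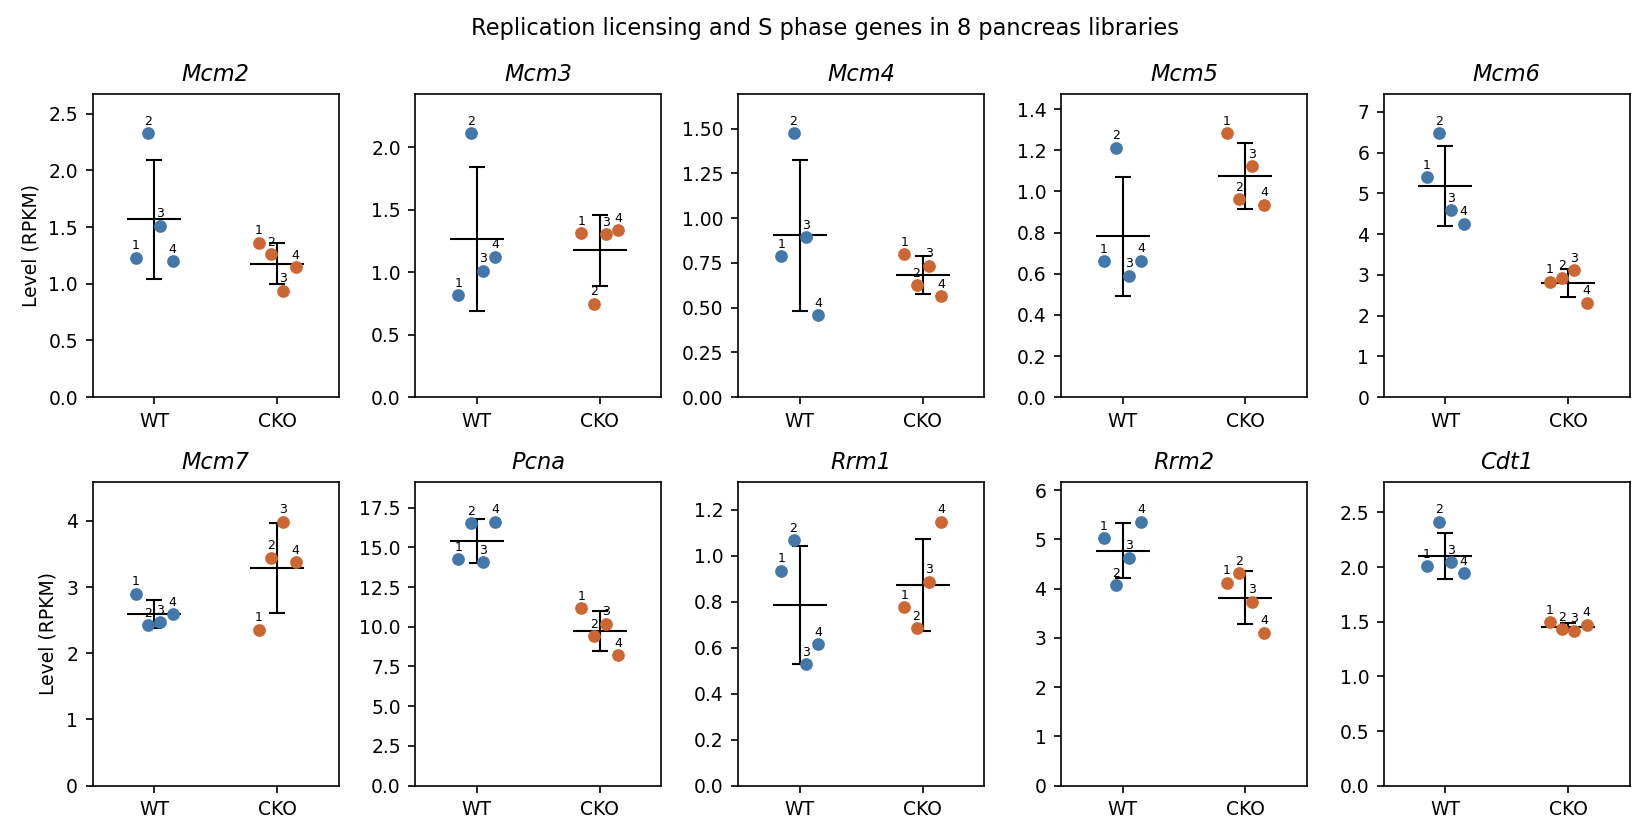
Level of each of the 10 genes in RPKM (vertical axes, linear, each from 0) in the 4 WT and 4 CKO libraries. Points are libraries with their replicate number, horizontal lines are means and bars are SD (n = 4). Mcm6, Pcna and Cdt1 are the panels in which the groups do not overlap, and WT2 is the top point for Mcm2, Mcm3, Mcm4, Mcm6 and Cdt1.

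Mcm6, a helicase subunit, had the largest log2 change of the 7 tested genes. Its levels were 2.84, 2.93, 3.11 and 2.32 RPKM in CKO against 5.39, 6.48, 4.59 and 4.26 RPKM in WT. Every CKO library lay below every WT library. Means were 2.80 ± 0.339 RPKM (CKO) and 5.18 ± 0.988 RPKM (WT; SD, n = 4 each), 1.85-fold higher in WT. Its log2 change was -0.69 (SE 0.14, 95% confidence interval -0.99 to -0.40, limma adjusted p = 0.0139). Without WT2 the log2 change was -0.60 with an adjusted p of 0.0347 in the same test.

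Mcm7, another subunit, went the other way in its mean without passing the test. Its levels were 2.36, 3.45, 3.99 and 3.37 RPKM in the 4 CKO libraries and 2.90, 2.42, 2.47 and 2.59 RPKM in the 4 WT libraries. CKO2, CKO3 and CKO4 lay above all WT libraries, and CKO1 lay below them all. Its log2 change was 0.24 (SE 0.13, interval -0.05 to 0.53, limma adjusted p = 0.259). The annotated Mcm7 gene (chr5:138164583-138172422, mm10, GENCODE M21) overlaps Ap4m1 by 421 bases and Cops6 by 64 bases on the opposite strand, and holds Mir25, Mir93 and Mir106b. The sources used here do not say whether reads were counted by strand, so some Mcm7 reads may belong to a neighbour. Ap4m1 and Cops6 had log2 changes of -0.16 and -0.32 (limma adjusted p = 0.426 and 0.0938).

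Mcm2, a subunit that also binds histones, had 1.36, 1.26, 0.939 and 1.15 RPKM in CKO against 1.23, 2.33, 1.51 and 1.20 RPKM in WT. WT2 set the upper end and the other 3 WT libraries were near or within the CKO range. The log2 change was -0.22 (interval -0.52 to 0.08, limma adjusted p = 0.327). Mcm3, the ring subunit beside Mcm5, had 1.31, 0.748, 1.30 and 1.34 RPKM in CKO1 to CKO4. In WT1 to WT4 it had 0.817, 2.11, 1.01 and 1.12 RPKM, so the groups overlapped almost wholly. Its log2 change was -0.04 (interval -0.40 to 0.32, limma adjusted p = 0.904) and turned to 0.12 without WT2, to 0.06 without CKO2 and to 0.06 after median centring.

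Mcm4 and Mcm5 stayed under the level filter and are given by their values. Mcm4, part of the subunit group with core helicase activity, had 0.798, 0.624, 0.735 and 0.565 RPKM in the 4 CKO libraries and 0.788, 1.48, 0.892 and 0.457 RPKM in the 4 WT libraries. Both the highest and the lowest of these were WT libraries. Mcm5 had 1.28, 0.962, 1.12 and 0.936 RPKM in CKO against 0.662, 1.21, 0.591 and 0.663 RPKM in WT. Every CKO library was above WT1, WT3 and WT4, and WT2 lay among the CKO values. Both genes could be tested with limma-voom on the reads recovered from the RPKM values, over the 14695 genes with 10 reads or more in all, a setting chosen after the data were seen. There Mcm4 had a log2 change of -0.30 (adjusted p = 0.593) and Mcm5 one of 0.51 (interval -0.04 to 1.05, adjusted p = 0.243), and neither passed, also without WT2 (Mcm5 0.74, adjusted p = 0.117).

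The summed level of the 6 subunit genes was 9.95, 9.97, 11.2 and 9.68 RPKM in the 4 CKO libraries and 11.8, 16.03, 11.1 and 10.3 RPKM in the 4 WT libraries. The ranges overlapped, with means of 10.2 ± 0.682 and 12.3 ± 2.57 RPKM (SD, n = 4 each). The make-up of that sum differed more than its size. Mcm6 supplied 28.5%, 29.4%, 27.8% and 23.99% of the summed RPKM in CKO1 to CKO4 and 45.7%, 40.4%, 41.5% and 41.4% in WT1 to WT4, with no overlap. WT2, the highest library in Mcm6 level, had the lowest of the WT shares. The share of Mcm5 was 9.65% to 12.9% in CKO and 5.34% to 7.56% in WT, again with no overlap and in the other direction. The share of Mcm7 was 23.7% to 35.6% in CKO and 15.1% to 25.1% in WT, and these overlapped through CKO1. Shares of Mcm2, Mcm3 and Mcm4 overlapped as well. Their means were 11.6%, 11.5% and 6.67% in CKO and 12.6%, 10.1% and 7.10% in WT. Shares of one sum are not independent, since a lower share of Mcm6 raises the others. The ratio of Mcm6 to Mcm7 was 1.20, 0.850, 0.781 and 0.688 in CKO against 1.86, 2.68, 1.86 and 1.65 in WT. Mcm6 was therefore the more abundant of the pair per length in all 4 WT libraries and in CKO1, and Mcm7 in the other 3 CKO libraries. These shares and ratios were not tested.

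**Figure D2:**
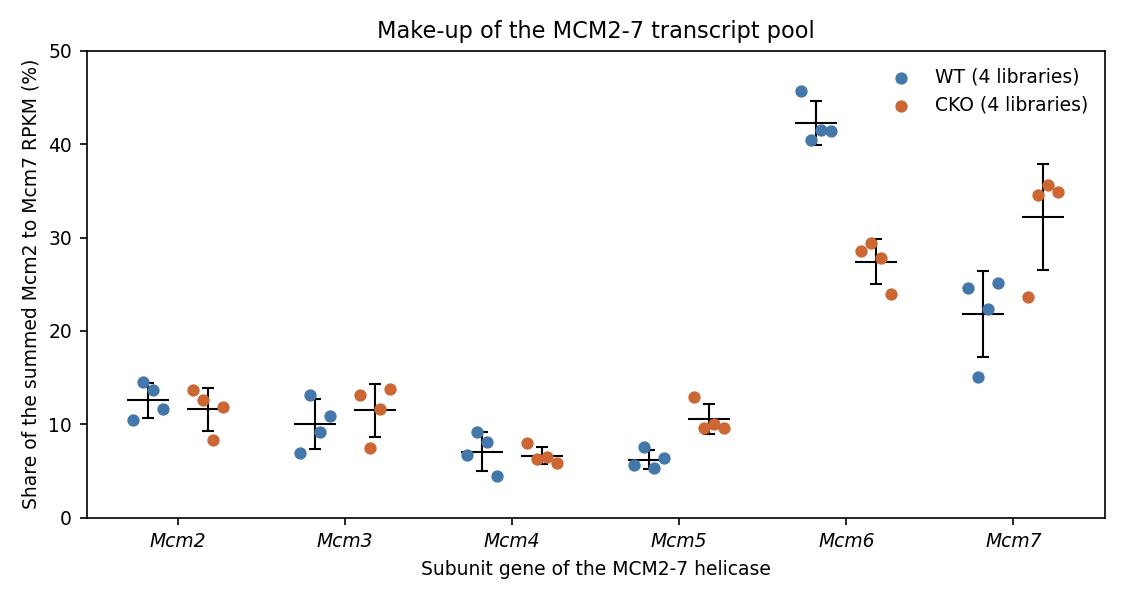
Share of each subunit gene in the summed RPKM of Mcm2 to Mcm7 (vertical axis, percent) for WT and CKO. Points are libraries, lines are means and bars are SD (n = 4). The Mcm6 share is 40.4% to 45.7% in WT and 23.99% to 29.4% in CKO, and the Mcm5 share is higher in all CKO libraries.

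Cdt1, which loads the helicase, had 1.49, 1.43, 1.42 and 1.47 RPKM in the 4 CKO libraries and 2.01, 2.42, 2.05 and 1.95 RPKM in the 4 WT libraries. The CKO libraries lay very close together and all below WT. Means were 1.46 ± 0.0353 and 2.10 ± 0.212 RPKM (SD, n = 4 each). The log2 change was -0.34 (SE 0.10, interval -0.56 to -0.12), but the adjusted p of 0.0630 in limma missed the threshold, as it did in each of the 18 other settings run (0.0631 to 0.223). Cdt1 lies wholly inside the annotated span of a longer gene model, Gm20388, on the same strand.

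Pcna, the sliding clamp, was the most abundant gene of the set. It had 11.2, 9.40, 10.2 and 8.22 RPKM in CKO against 14.3, 16.5, 14.1 and 16.6 RPKM in WT, with all CKO libraries below all WT libraries. Means were 9.75 ± 1.25 and 15.4 ± 1.39 RPKM (SD, n = 4 each), 1.58-fold higher in WT. The log2 change was -0.61 (SE 0.12, interval -0.87 to -0.35, limma adjusted p = 0.0141). Without WT2 it was -0.58 (limma adjusted p = 0.0426), and the call was lost (adjusted p = 0.0643) in limma-voom on recovered reads without WT2. Mouse Pcna has 2 annotated processed pseudogenes, Pcna-ps1 on chromosome X and Pcna-ps2 on chromosome 19, and the sources used here do not say how reads shared with them were counted.

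Rrm2, the small subunit of ribonucleotide reductase, whose level follows S phase, had 4.12, 4.31, 3.74 and 3.11 RPKM in the 4 CKO libraries and 5.03, 4.07, 4.63 and 5.36 RPKM in the 4 WT libraries. WT2 was the one WT library inside the CKO range. The log2 change was -0.26 (interval -0.53 to 0.01, limma adjusted p = 0.198). Rrm1, the large subunit, was under the level filter, with 0.775, 0.684, 0.887 and 1.15 RPKM in CKO against 0.935, 1.07, 0.529 and 0.616 RPKM in WT. Its groups overlapped, and limma-voom on recovered reads gave a log2 change of 0.17 (interval -0.40 to 0.75, adjusted p = 0.734). In the same fit 2 of the 10 genes passed as lower and 0 as higher, where 3.48% of all genes passed as lower. Without WT2 it was 1 (Mcm6), where 1.69% did.

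Markers of other cells moved with these results in part. Summed duct markers, such as Krt19 and Spp1, were 311 to 575 RPKM in CKO and 594 to 688 RPKM in WT, with no overlap. Of their 7 genes, 6 had the lower mean in CKO. Taken singly, 1 of the 7 was lower in CKO without overlap, where 13.5% of genes with 10 reads or more were. The other 6 overlapped, Krt19 and Spp1 among them. Summed macrophage markers, led by Lyz2 and Cd14, were 178 to 358 RPKM in CKO and 313 to 627 RPKM in WT, with all 12 genes lower in mean and none at 0. Neutrophil markers, led by S100a9 and S100a8, summed to 15.8 to 52.9 RPKM in CKO and 41.2 to 87.9 RPKM in WT, with 7 of 8 lower in mean and 1 at 0 in some library. T and NK cell markers, of which Lck and Cd2 were the most abundant, summed to 0.328 to 0.667 and 0.585 to 3.73 RPKM, and 6 of 8 were at 0 in some library. B and plasma cell markers, of which Jchain and Cd79a were the most abundant, summed to 0.174 to 0.496 and 0.142 to 13.2 RPKM, with 5 of 6 at 0 in some library. Adipocyte markers (24.4 to 38.7 and 23.9 to 138 RPKM), islet markers (1303 to 2051 and 855 to 1646 RPKM), stellate and fibroblast markers (67.5 to 106 and 58.5 to 128 RPKM) and endothelial markers (16.4 to 20.9 and 17.2 to 26.3 RPKM) overlapped between CKO and WT. All 7 islet markers had the higher mean in CKO (median log2 change 0.49, 1 passed as higher in limma), all 6 adipocyte markers the lower, and 3 of 8 stellate and fibroblast and 2 of 7 endothelial markers the higher. The T and NK cell and the B and plasma cell markers were all lower in mean in CKO. Leaving out WT2 turned the mean stellate and fibroblast sum to higher in CKO (80.57 against 67.05 RPKM). The endothelial sum turned as well (18.22 against 17.95 RPKM). The adipocyte sum stayed lower in CKO (29.53 against 32.1 RPKM), as did the B and plasma cell sum (0.313 against 1.63 RPKM). The macrophage, neutrophil, T and NK cell and duct sums also stayed lower, and the islet and acinar sums stayed higher. In limma 1 of 7 islet markers passed as higher, where 1.42% of all tested genes did. That call was lost with no filter and in limma-voom over genes with 10 reads or more in all. Of the markers tested with limma, 1 of 12 macrophage, 1 of 6 duct, 1 of 11 acinar and 1 of 4 endothelial passed as lower. Of all tested genes 5.74% did. In limma without WT2, 0 macrophage and 0 endothelial markers passed as lower, and 1 duct and 1 acinar marker still did. Of all genes tested there 177 of 8345 passed as lower. The part of these cells in the lower Mcm6 and Pcna was not tested. In whole tissue, fewer cells of a type and less RNA per cell cannot be told apart.

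Transcripts of mitosis genes were higher in sum in CKO, unlike those of the helicase genes. Their summed level over 40 genes was 16.5, 15.5, 16.2 and 18.9 RPKM in the 4 CKO libraries and 5.94, 10.5, 7.37 and 5.45 RPKM in the 4 WT libraries. All CKO libraries were above all WT libraries, and the mean was 2.29-fold higher in CKO (16.8 ± 1.499 against 7.31 ± 2.26 RPKM, SD, n = 4 each). The ratio of the summed helicase genes to the summed mitosis genes was 0.512 to 0.693 in CKO and 1.502 to 1.98 in WT, with no overlap. WT2, which was high in helicase transcripts, was also the WT library with the most mitosis transcripts, and its ratio of 1.53 was inside the WT range.

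**Figure D3:**
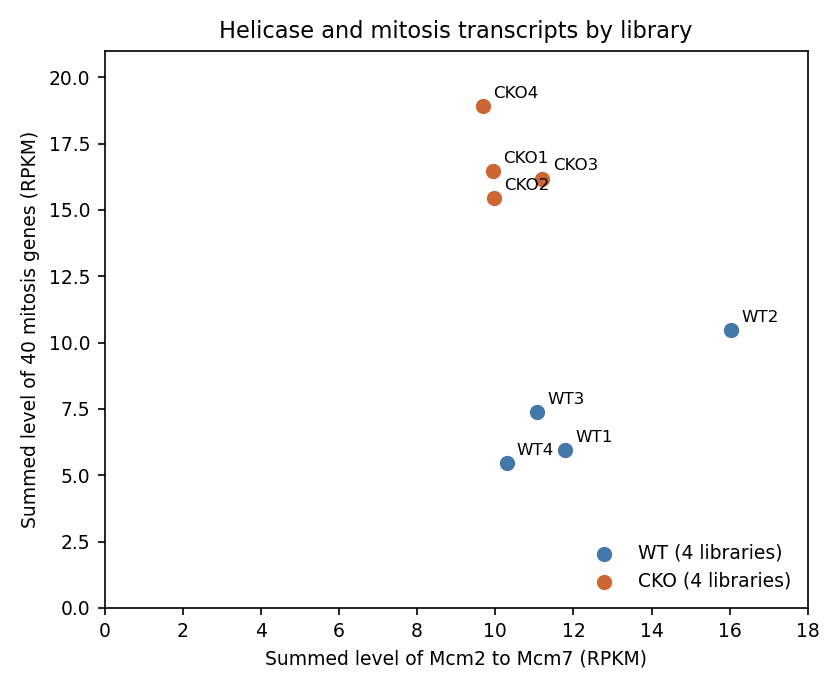
Summed RPKM of the 40 mitosis genes (vertical axis) against summed RPKM of Mcm2 to Mcm7 (horizontal axis), 1 point per library. The CKO libraries sit between 15.5 and 18.9 RPKM of mitosis transcripts, above all WT libraries (5.45 to 10.5 RPKM), while the helicase sums of the groups overlap.

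Most mitosis genes were low, and only 2 of the 40 reached the level filter. Ube2c, the ubiquitin-conjugating enzyme of the anaphase-promoting complex, had 1.13, 1.19, 1.07 and 1.73 RPKM in CKO against 0.270, 0.301, 0.310 and 0.0705 RPKM in WT. It was higher in all CKO libraries, with a log2 change of 0.88 (SE 0.12, limma adjusted p = 0.00119). Ube2c passed the filter only through the CKO libraries, so its call is no measure of the list. Pttg1, the separase inhibitor securin, did not pass (log2 change -0.14, limma adjusted p = 0.388). With no filter on low values limma called 16 of the 40 as higher and 0 as lower, where 0.675% of all genes passed as higher and 2.07% as lower. With a filter at 0.3 RPKM it called 11 of 21 as higher and 0 as lower, where 1.34% and 4.99% of all genes passed. Of those 11, 8 were under 0.3 RPKM in all 4 WT libraries and were tested only through CKO, so this count is no measure of the list either. Limma-voom on recovered reads called 19 as higher and 0 as lower, with 1.25% of all genes passing as higher, and 17 without WT2, with 0.781%. Its median log2 change was 2.11 over the 40 genes and -0.19 over all genes tested there. Of the 40, 8 were at 0 in some library (4 in WT1, 0 in WT2, 3 in WT3 and 8 in WT4), and none in CKO. The size of such changes is therefore only loosely fixed. The 10 replication genes had a median of -0.31 in the same fit. Without WT2 the median was -0.09 for these 10 genes, 2.34 for the mitosis genes and -0.14 for all genes. The lower median of the 10 replication genes was thus not kept in limma-voom without WT2. In limma without WT2 the 7 tested replication genes had a median of -0.29, against -0.11 over all tested genes. Groups did not overlap for 27 of the 40 genes with CKO higher and for 2 with CKO lower, where 2.63% of genes with 10 reads or more were higher and 13.5% lower without overlap.

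Top2a, the topoisomerase that untangles chromosomes, and Mki67, which coats them in mitosis, are named after their values were seen. Top2a had 0.977, 0.989, 0.940 and 1.48 RPKM in CKO1 to CKO4 (168 to 244 reads) and 0.0660, 0.375, 0.165 and 0.0125 RPKM in WT1 to WT4 (2 to 63 reads). Its log2 change in limma-voom was 3.54 (SE 0.61, adjusted p = 0.00735). Mki67 had 0.363, 0.375, 0.532 and 0.581 RPKM in the 4 CKO libraries and 0.00935, 0.229, 0.114 and 0.0261 RPKM in the 4 WT libraries (log2 change 3.08, limma-voom adjusted p = 0.0186). Among the WT libraries WT2 was the highest for both, and every CKO library lay above it. The promoters of these 2 genes printed above hold CHR letters, and those of Mcm6 and Mcm5 hold E2F letters. These 4 were picked with their values known, and other genes differ. Smc2 and Ccnf had 2 CHR matches each and were lower in all CKO libraries than in any WT library. Birc5 and Ccnb1 had 0 CHR matches and were higher in all CKO libraries. Those further genes were also named after their values were seen. A link between letters and direction was not tested.

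**Figure D4:**
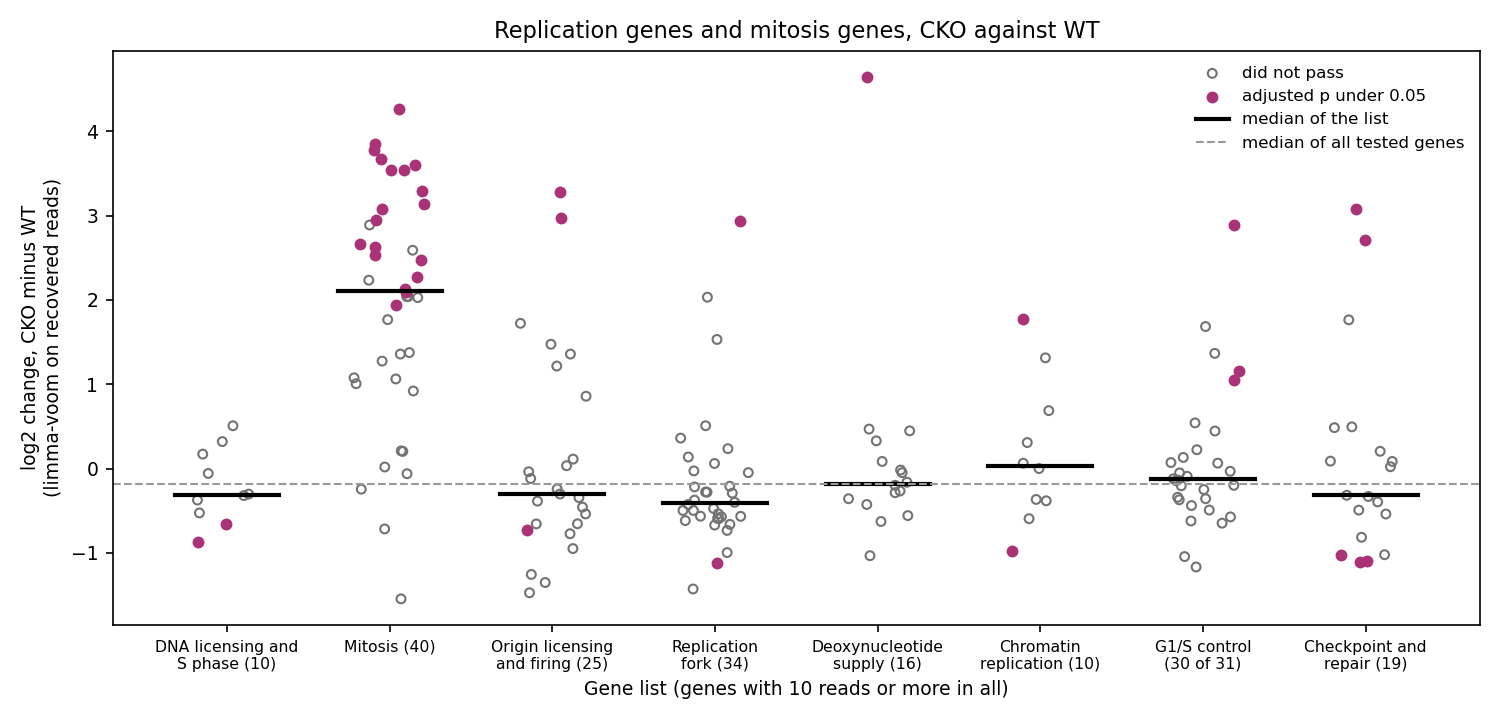
Log2 change of each gene with 10 reads or more in all (vertical axis, CKO minus WT, limma-voom on recovered reads) for the 10 replication genes, the mitosis genes and 6 further replication lists. Filled points passed the threshold of 0.05, black bars are list medians and the dashed line is the median of all tested genes (-0.19). The mitosis median is 2.11 and that of the replication genes is -0.31. Without WT2, not drawn, the median is -0.09 for the replication genes and -0.14 for all genes.

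Of 135 further genes of DNA replication and G1/S control, 59 were tested with limma, 2 passed as higher and 8 as lower, where 1.42% and 5.74% of all tested genes did. This split turned to 4 higher and 3 lower of 59 after median centring and to 10 higher and 5 lower of 135 with no filter. Among 25 genes of origin licensing and firing, 9 were tested with a median log2 change of -0.28. Orc2, a subunit of the origin recognition complex, fell (1.21 to 1.78 RPKM in CKO and 2.11 to 3.15 RPKM in WT, log2 change -0.49, limma adjusted p = 0.0380), a call lost in 8 of 18 other settings, among them without WT2. Dbf4, the activator of the kinase that fires origins, did not pass (log2 change -0.37, adjusted p = 0.0763 in limma), nor did Gins4 and Orc5.

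Of 34 replication fork genes 17 were tested, with a median log2 change of -0.36. In limma 3 passed as lower, where 5.74% of all tested genes did. Fen1, the nuclease that trims Okazaki fragments and binds PCNA, fell, with 0.543 to 1.16 RPKM in CKO and 1.51 to 1.76 RPKM in WT (log2 change -0.58, limma adjusted p = 0.0166), and missed the threshold after median centring and without CKO2. It reached the level filter through its WT libraries, since 3 of the 4 CKO libraries were under 1 RPKM. Pole3, a histone-fold subunit of polymerase epsilon, and Rnaseh2b, a subunit of the RNase that removes RNA from DNA, passed narrowly (log2 changes -0.57 and -0.39, limma adjusted p = 0.0469 and 0.0475). They missed the threshold in 13 and 17 of 18 other settings. Rnaseh2a did not pass (adjusted p = 0.0622 in limma), though all its CKO libraries (2.80 to 4.07 RPKM) were below all WT libraries (4.55 to 4.72 RPKM).

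Of 16 deoxynucleotide supply genes 8 were tested, 0 passed and the median log2 change was -0.11. The 4 with the smallest p were Dtymk, Cad, Nme1 and Ctps, with limma adjusted p of 0.0950 to 0.346. Cad, the first enzyme of pyrimidine synthesis, was higher in all CKO libraries (5.76 to 7.02 RPKM) than in any WT library (3.27 to 5.58 RPKM). Of 10 genes listed under chromatin replication, 3 were tested. Asf1a, a histone chaperone, passed as lower (log2 change -0.40, limma adjusted p = 0.0478) and lost this call in 17 of 18 other settings, and Lmnb1 and Slbp did not pass.

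In the G1/S control list 15 of 31 genes were tested, with a median log2 change of -0.10. Myc, a growth-promoting transcription factor, rose, with 14.8, 19.9, 19.4 and 24.98 RPKM in CKO against 11.5, 7.06, 10.3 and 9.34 RPKM in WT (log2 change 0.98, limma adjusted p = 0.00808). Cdkn1a, which encodes p21, an inhibitor of cyclin-dependent kinases that also binds PCNA, rose as well, with 125, 198, 196 and 167 RPKM in the 4 CKO libraries and 99.4, 47.2, 81.4 and 87.6 RPKM in the 4 WT libraries (log2 change 1.14, limma adjusted p = 0.0152). Ccnd1 and Cdk4, the G1 cyclin and its kinase, had log2 changes of 0.41 and -0.35 and did not pass (limma adjusted p = 0.0690 and 0.0722).

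In the replication stress and checkpoint list 7 of 19 genes were tested and 3 fell, where 5.74% of all tested genes passed as lower. In limma-voom over genes with 10 reads or more, 3 of the 19 passed as lower and 2 as higher. Of all genes 3.48% and 1.25% did there. Wee1, the kinase that restrains entry into mitosis, had 2.47, 2.83, 2.78 and 1.42 RPKM in CKO against 4.42, 4.78, 4.74 and 6.10 RPKM in WT (log2 change -0.85, limma adjusted p = 0.0117). Msh6, a protein of mismatch recognition on newly copied DNA, had 1.11 to 1.80 RPKM in CKO and 2.54 to 3.22 RPKM in WT, without overlap (log2 change -0.68, limma adjusted p = 0.0106). Rad9a did not pass. Myc, Cdkn1a, Wee1 and Msh6 passed in all 18 other settings.

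Limma-voom on recovered reads reached the low genes of these lists as well. Of the 134 of 135 genes tested there, 10 passed as higher and 6 as lower, where 1.25% and 3.48% of all genes did. The higher genes other than Myc and Cdkn1a were at or below 0.722 RPKM in all libraries, and their names are given after their values were seen. Tk1, a thymidine kinase of S phase, had 24, 32, 27 and 40 reads in the 4 CKO libraries and 0, 1, 4 and 0 reads in the 4 WT libraries (limma-voom adjusted p = 0.00349). Pole, the catalytic subunit of polymerase epsilon, had 45, 36, 53 and 48 reads against 2, 12, 5 and 5 (limma-voom adjusted p = 0.00548). Mcm10, a factor that activates the helicase, had 13, 6, 8 and 15 reads against 1, 2, 0 and 0 (limma-voom adjusted p = 0.0283). Ticrr, Chaf1a, E2f8, Fancd2 and Exo1 were the other 5. Ticrr, Chaf1a, Fancd2 and Exo1 no longer passed without WT2 (adjusted p = 0.0699, 0.0827, 0.05004 and 0.0938 in limma-voom), and Tk1, Pole, Mcm10 and E2f8 did.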

How the data were processed

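RNA sequencing values were deposited by the authors as RPKM for 16888 genes in 8 named columns, 1 per sample. The table's header names no unit, and RPKM was read from the values. For 99.88% of 16068 genes with 2 or more values above 0, whole reads were recovered in every library, within 0.05 reads, once length and library total were restored. The build was mm10, per the submitters' processing notes. The sources used here do not give the aligner, counter, annotation or strand. A further unnamed column (1) of 8 numbers was not used.

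The test was limma 3.58.1 (R 4.3.3) on log2(RPKM + 1), with a variance trend and robust variances, for genes at 1 RPKM or more in at least 4 libraries. Group was the only term, and adjustment was Benjamini-Hochberg over all tested genes at 0.05. The other settings were a pseudocount of 0.1, no filter, a filter at 0.3 RPKM, no variance trend, limma-voom on recovered reads, median centring, totals without acinar enzymes, a replicate block and leaving out each library. Limma-voom over genes with 10 reads or more in all, with and without WT2, was added after the data were seen. The steps were tested on simulated data. Python 3.11.15 and pandas 2.3.3 were used. The genes and lists were chosen with earlier results of these data known. The genes named were the 10 chosen ones, the up to 4 tested genes of smallest p and all passing genes (up to 8) of each replication or mitosis list, the 2 most abundant genes of each marker list, and Anxa1. Others are said to be outside this rule. A gene of the checkpoint list that this rule takes is not reported here. Same-numbered CKO and WT libraries deviated together with correlations of -0.123, -0.315, 0.142 and 0.033, so the numbers were not taken as pairs.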

Additional observations from a re-analysis of the deposited data

Results flagged for a closer look

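Of 28 sets of 4 libraries checked for 1 library far from the other 3 (Dixon's test), 2 had one, and chance gives about 1 in 20. Mcm3 in CKO2 was at 0.748 RPKM, below the 1.30 to 1.34 RPKM of the other CKO libraries. Mcm5 in WT2 was at 1.21 RPKM, above the 0.591 to 0.663 RPKM of the other WT libraries.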

How the results depend on the processing

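Mcm6 passed in all 18 other settings (adjusted p 0.0124 to 0.0492) and Pcna in 17 of 18. The count of the 10 replication genes past the threshold was 2 throughout except for 1 in limma-voom over genes with 10 reads or more without WT2. Without each library in turn, the count over all genes ran from 185 to 686 (610 with all), falling to 228, 267, 185, 245, 297 and 254 without CKO2, CKO4, WT1, WT2, WT3 and WT4, and it was 357 in limma-voom without WT2. For mitosis genes (1 of 2 tested) it was 16 with no filter, 11 with a filter at 0.3 RPKM (8 of them tested only through CKO), 19 in limma-voom over genes with 10 reads or more and 17 there without WT2. It was 0 with totals without acinar enzymes, where 1 gene was tested, and 0 to 1 without each library, with 0 wherever Ube2c was no longer tested. For the further replication genes (2 higher and 8 lower of 59) it was 16 in limma-voom (10 higher, 6 lower), 15 with no filter (10 higher, 5 lower), 7 after median centring (4 higher, 3 lower) and 5 to 11 without each library, with 5 without CKO2 and 6 without CKO4, WT1 or WT2. The log2 change of Mcm3 (-0.04) turned to 0.0647 after median centring, to 0.00399 with totals without acinar enzymes and to 0.224 in limma-voom without WT2, and ran from -0.135 to 0.124 without each library. Its cause was not tested. The replicate block gave 548 genes in all, 2 of the replication genes, 1 mitosis gene and 8 further replication genes, and the shared numbers are not shown to be pairs. Depth limits the lowest genes: 3 reads on a gene of 1 kb are 0.0873 to 0.0985 RPKM, for counting error only.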

Other observations

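The 40 mitosis genes did not all move one way. Cdk1, the kinase that drives entry into mitosis, had 0.243 to 0.303 RPKM in CKO and 0.202 to 0.387 RPKM in WT, with overlap (limma-voom adjusted p = 0.979). Smc2, a condensin subunit, was lower in all CKO libraries (0.0516 to 0.202 RPKM) than in any WT library (0.210 to 0.453 RPKM), with an adjusted p of 0.0674 in limma-voom, and Ccnf, which encodes cyclin F, was lower without overlap too (0.295 to 0.400 and 0.527 to 0.633 RPKM, adjusted p = 0.126 in limma-voom). These 3 genes were named after their values were seen.

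Ratios between the replication genes, given as values only, also set the groups side by side. Pcna was 2.43 to 4.75 times the RPKM of Mcm7 in CKO and 4.92 to 6.83 times in WT, without overlap. Rrm2 was 2.71 to 6.30 times the RPKM of Rrm1 in CKO and 3.81 to 8.75 times in WT, with overlap.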
